A study of Mus musculus with 6 samples.

Results

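The colony-stimulating factor and IL-1 family cytokine genes examined here were Csf1, Csf2, Csf3, Il34, Il1a, Il1b, Il1rn, Il18, Il33 and Tslp. These 10 genes, of 18193 represented on the array by probe sets with a single gene symbol, were taken by name from a list of cytokines, which was drawn up with earlier results of these data known. They had 15 probe sets, and each gene is described by the probe set with its highest mean log2(signal + 50) over the 6 arrays. The cells were E0771, a mammary tumour line of C57BL/6 mice, as the unselected parental population and as E0771-HML2. HML2 is a second-generation population, selected by 2 rounds of growth in mouse mammary fat pads with retrieval of the cells that had reached the lung. No drug or other treatment is named for either group. Each group had 3 cultures grown for 3 days with 10% fetal bovine serum, called biological replicates in the labels, and 1 array per culture; whether HML2 cultures came from different animals is not given. The p-values therefore reflect only how much such cultures varied.

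Colony-stimulating factors act on myeloid cells and their precursors. CSF-1 and the unrelated cytokine IL-34 share the receptor CSF1R and keep macrophages alive, GM-CSF (Csf2) signals through a specific alpha and a common beta chain to granulocytes and macrophages, and G-CSF (Csf3) drives neutrophil production. IL-1 alpha and IL-1 beta engage IL1R1 with the accessory chain IL1RAP and signal through MyD88 and IRAK kinases to NF-kB, whereas IL-1 receptor antagonist (Il1rn) occupies the receptor without signalling. IL-1 beta and IL-18 are made as precursors that caspase-1 cuts, IL-33 is a nuclear alarmin of barrier cells, and TSLP is an IL-7-like epithelial cytokine. In mammary tumours these factors are known for supporting macrophages and neutrophils.

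All 6 arrays had the same trimmed mean signal of 500. Between 39.6% and 41.5% of an array's probe sets had signals of at least 100. Bacterial tryptophan control probe sets, used here to gauge background, read 1.97 to 36.2. The 3' to 5' signal ratio of the Gapdh control probe sets was 0.770 to 0.816. Among 12 mammary epithelial markers, Krt8 and Epcam alone passed the signal filter of a mean of 100. Krt8 was higher in HML2 cells, at 1034 to 1154 on parental and 3592 to 4875 on HML2 arrays. Epcam went the other way, at 108 to 157 on parental and 68.9 to 98.9 on HML2 arrays. Its difference of -0.45 did not pass the test used below (limma, adjusted p = 0.12), and it passed the filter only through the parental arrays. The other 10, Krt18 among them, lay below the filter, 6 of them under the highest bacterial control on every array. Of 14 myeloid markers, Cd14, Laptm5 and Lyz2 passed it; the leukocyte gene Ptprc read 0.994 to 19.8 and the integrin gene Itgam 3.00 to 26.9, at or below the highest bacterial control. In these bulk cultures fewer cells that express a gene and less RNA per cell cannot be told apart.

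Promoter windows from RefSeq (GRCm38.p6, 250 bases before to 50 bases after a transcript start, 5′ to 3′ on the gene's strand) were matched for 7 of the 10 genes, in 10 windows. Those of Csf1, Csf2 and Il18 are shown because these genes carry the values described most fully below: Csf1 at chr3:107760420-107760719 on the minus strand, Csf2 at chr11:54249850-54250149 on the minus strand and Il18 at chr9:50554450-50554749 on the plus strand. Capitals mark a match on either strand to the degenerate kappa-B consensus, the AP-1 motif TGANTCA, the palindromic C/EBP consensus, GAGATT of the CK-1 element or TATAAA.
Csf1: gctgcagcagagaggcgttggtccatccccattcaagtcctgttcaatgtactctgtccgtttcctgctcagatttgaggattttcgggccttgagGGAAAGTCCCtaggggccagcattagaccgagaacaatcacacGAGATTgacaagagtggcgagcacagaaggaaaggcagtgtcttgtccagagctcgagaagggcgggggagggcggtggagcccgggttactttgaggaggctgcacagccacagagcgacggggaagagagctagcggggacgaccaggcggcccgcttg
Csf2: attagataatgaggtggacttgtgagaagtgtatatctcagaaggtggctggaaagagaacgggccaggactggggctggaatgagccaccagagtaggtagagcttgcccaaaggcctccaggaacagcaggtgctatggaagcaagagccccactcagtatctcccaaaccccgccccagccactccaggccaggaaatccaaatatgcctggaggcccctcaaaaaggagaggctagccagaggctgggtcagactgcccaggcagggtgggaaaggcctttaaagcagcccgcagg
Il18: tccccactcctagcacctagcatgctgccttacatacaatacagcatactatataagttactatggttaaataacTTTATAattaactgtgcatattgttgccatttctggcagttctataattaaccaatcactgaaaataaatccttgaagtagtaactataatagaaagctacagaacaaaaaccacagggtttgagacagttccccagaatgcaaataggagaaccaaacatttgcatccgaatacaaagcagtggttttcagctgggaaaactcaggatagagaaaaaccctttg
The Csf1 window held a kappa-B match beginning at base -154 and a GAGATT match beginning at base -111, counted from the transcript start, motifs that 4.51% and 11.6% of all 32851 windows held. The Il18 window held a TATAAA match on the opposite strand, found in 13.6% of all windows, and none of the searched letters stood in the Csf2 window. Of the others, the Il1a window and 1 of the 3 Il1rn windows held TGANTCA, which 7.81% of all windows held, and TATAAA stood in the windows of Il1a, Il1b and Il33 and in another of Il1rn. The palindromic C/EBP consensus, held by 0.0609% of windows, was not matched in the windows of these genes. A match describes letters only and does not mark a used site, and the absence of one says nothing of the factor. Bases outside these windows were not searched, so the absence in Csf2 holds for the bases shown and not for the gene's whole regulatory region.

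Csf2 rose in HML2 cells from the background range. The gene, which encodes GM-CSF, had signals of 5.30, 11.3 and 13.999 on parental replicates 1 to 3 and of 161, 88.3 and 137 on HML2 replicates 1 to 3. All parental values lay within the bacterial control range, all HML2 values lay above it, and the groups did not overlap. The means were 10.2 ± 4.45 and 129 ± 36.9 (SD, n = 3), and the difference of HML2 minus parental was 1.55 ± 0.21 (SE) on the log2(signal + 50) scale, which understates the change of dim genes. Measured against a floor, taken on each parental array as the higher of its brightest bacterial control and the gene's own signal, Csf2 was at least 5.27-fold higher in HML2 cells.

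With a mean of 69.5 over all arrays, Csf2 fell below the signal filter and was tested in a limma fit over all 18193 genes, where its Benjamini-Hochberg adjusted p was 0.0033. It was higher than the parental mean on 3 of 3 HML2 arrays. That fit called 5.07% of genes higher and 6.82% lower. Among genes with a mean signal under 100 it called 0.792% higher, 2.02% lower and 2.81% in either direction. It called 923 genes higher and 1241 lower, or 1676 and 873 with median centring, which moved the median of all genes by 0.16. Under the 15 settings run on all genes, including each array left out in turn, Csf2 was called in 15, with differences from 1.04 to 2.45 and adjusted p-values from 0.0012 to 0.025.

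**Figure D1:**
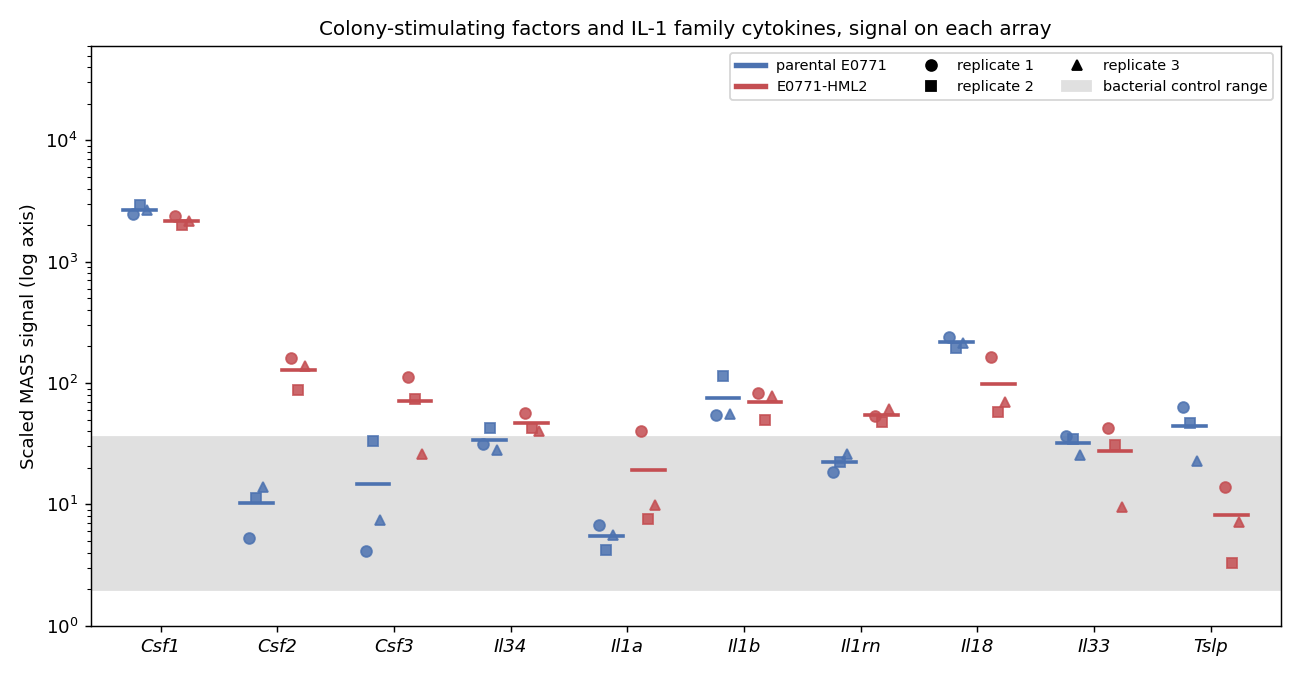
Scaled MAS5 signal (log axis) of the 10 genes on each array, with parental cells in blue, HML2 cells in red, bars for group means and marker shapes for replicate numbers; the grey band is the range of the bacterial controls, 1.97 to 36.2. Csf2 lies within the band on all parental arrays and at 88.3 to 161 on the HML2 arrays, and Tslp lies above the band on 2 parental arrays only.

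Csf3, which encodes the neutrophil growth factor G-CSF, had signals of 4.11, 33.0 and 7.37 on parental arrays and of 113, 74.3 and 25.9 on HML2 arrays. HML2 replicates 1 and 2 were above every parental array, whereas HML2 replicate 3 was below parental replicate 2, so the groups overlapped. The difference was 0.86 ± 0.30 (SE) and did not pass the test (limma, adjusted p = 0.11 over all genes). It was 1.16 with an adjusted p of 0.045 without HML2 replicate 3, and 1.02 with an adjusted p of 0.044 under median centring.

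Csf1 and Il34, the 2 ligands of CSF1R, did not pass the test of a difference between the groups. Csf1 had signals of 2469, 2911 and 2663 on parental arrays and of 2358, 2015.85 and 2149.85 on HML2 arrays. Every HML2 array was below every parental array, but the gap between parental replicate 1 and HML2 replicate 1 was small. The difference was -0.30 ± 0.12 (SE), with a 95% interval from -0.57 to -0.02 and an adjusted p of 0.11 in the limma fit over the 9361 genes that passed the filter. Without HML2 replicate 1 it was -0.35 and passed the test (adjusted p = 0.035), as it did with array weights (-0.32, adjusted p = 0.0056).

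The other 3 Csf1 probe sets did not repeat this separation. Their groups overlapped, with differences of 0.05, 0.00 and -0.08, and parental and HML2 means of 100.2 and 119, of 127 and 129 and of 335 and 318. The mean over the gene's probe sets differed by -0.08 (limma, adjusted p = 0.75). Il34 had signals of 31.2, 42.5 and 27.8 on parental and of 56.6, 42.9 and 40.4 on HML2 arrays. The groups overlapped, and its difference of 0.20 had a 95% interval from -0.18 to 0.59 (limma, adjusted p = 0.53 over all genes).

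**Figure D2:**
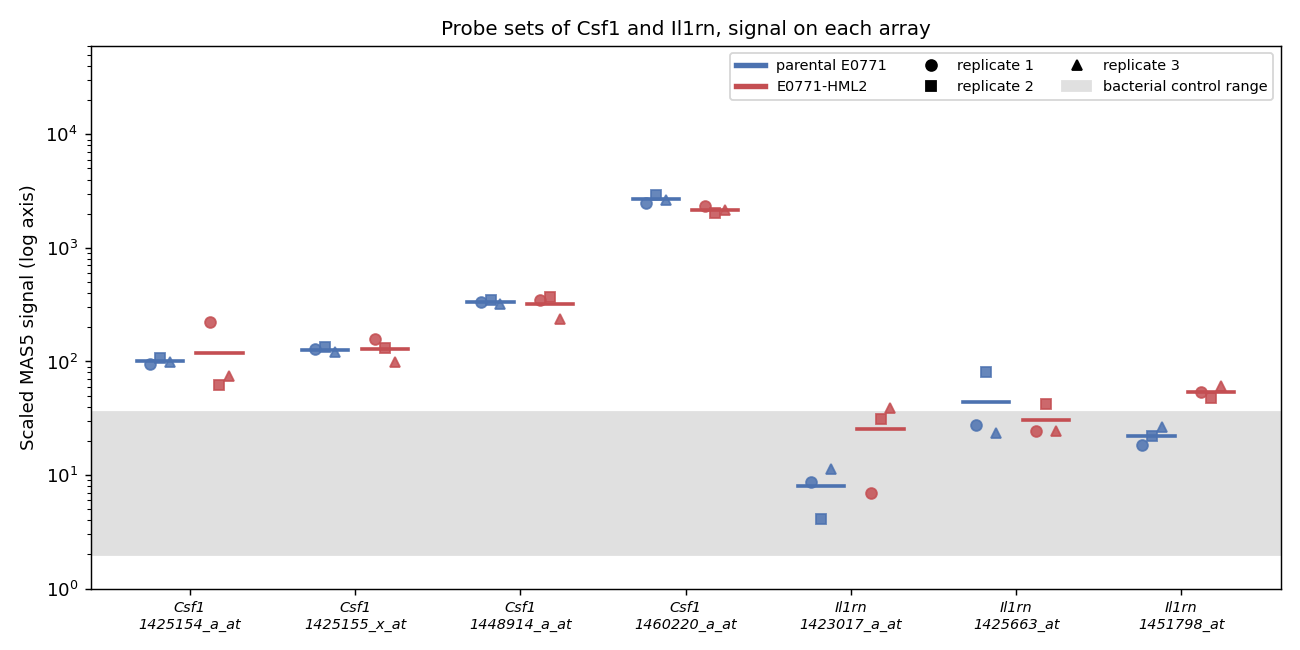
Scaled MAS5 signal (log axis) on each array for the 4 probe sets of Csf1 and the 3 of Il1rn, with group means as bars and the bacterial control range in grey. The groups separate for the Csf1 probe set with the highest signal (means 2681 and 2175) and for the Il1rn probe set used here (means 22.3 and 54.0) and overlap for the other 5.

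Il18 was called lower in HML2 cells among the genes that passed the signal filter, but not among all genes. It encodes the caspase-1 substrate that induces interferon gamma in lymphocytes, and its signals were 241.5, 193 and 216 on parental arrays and 165, 57.7 and 69.2 on HML2 arrays. The groups did not overlap, and HML2 replicate 1 was nearer to the parental arrays than to the other HML2 arrays. The difference was -0.92 ± 0.27 (SE), with an adjusted p of 0.036 in the limma fit over genes that passed the filter, where 14.9% of genes were called lower. Il18 passed the filter only through the parental arrays, where it was high (means 217 ± 24.2 and 97.3 ± 58.9), so that fit does not stand as separate support. It was lower than the parental mean on 3 of 3 HML2 arrays.

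In the fit over all genes Il18 was not called (limma, adjusted p = 0.079). It was called there in 3 of the 15 settings, among them with replicate numbers as a block (0.043). Adjusted p-values over these settings ran from 0.0087 to 0.23. In the filtered fit the call was lost when any array other than HML2 replicate 1 was left out: the adjusted p was 0.11 without parental replicate 1, 0.072 without parental replicate 2, 0.11 without parental replicate 3, 0.10 without HML2 replicate 2 and 0.11 without HML2 replicate 3. Without HML2 replicate 1 the difference was -1.23 (adjusted p = 0.0015).

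Both IL-1 agonist genes were dim. Il1a had signals of 6.70, 4.21 and 5.61 on parental arrays and of 40.5, 7.55 and 9.86 on HML2 arrays. The groups did not overlap, but 5 of the 6 values lay within the bacterial control range and HML2 replicate 1 alone lay above it. The difference was 0.29 (limma, adjusted p = 0.39 over all genes), and 0.08 without HML2 replicate 1. Il1b read 54.9, 115 and 55.3 on parental arrays and 82.2, 49.4 and 78.1 on HML2 arrays. Its groups overlapped, and its difference of -0.04 had a 95% interval from -0.61 to 0.53 and changed sign under other settings, among them quantile normalization and median centring.

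Il1rn, the receptor antagonist, had signals of 18.4, 22.2 and 26.2 on parental and of 53.6, 47.9 and 60.6 on HML2 arrays for its chosen probe set. The parental values lay within the control range, the HML2 values above it, and the groups did not overlap. The difference was 0.53 ± 0.16 (SE), at least 2.01-fold against the floor used for Csf2, and did not pass the test (limma, adjusted p = 0.067 over all genes). It passed with quantile normalization (adjusted p = 0.046), median centring (0.028), array weights (0.042) and no intensity trend (0.035). The gene's other probe sets differed by 0.36 and -0.18 with overlapping groups, and their mean with the chosen one by 0.23 (adjusted p = 0.37).

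Il33 and Tslp, which act on type 2 immune cells, were at or near background in HML2 cells. Il33 read 36.9, 34.3 and 25.6 on parental and 42.7, 30.9 and 9.50 on HML2 arrays, with overlapping groups and a difference of -0.10 (95% interval -0.55 to 0.34). Its sign turned under median centring and without HML2 replicate 3. Tslp read 64.0, 46.4 and 22.9 on parental arrays and 13.9, 3.29 and 7.21 on HML2 arrays. All HML2 values were below all parental values and within the control range, in which parental replicate 3 also lay.

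The difference of Tslp was -0.68 ± 0.19 (SE), at least 2.06-fold against the floor, which here was set on the HML2 arrays. It did not pass the test over all genes (limma, adjusted p = 0.056). When replicate numbers entered as a block it was called lower (adjusted p = 0.044), as it was with array weights (0.046) and without parental replicate 3 (0.041).

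**Figure D3:**
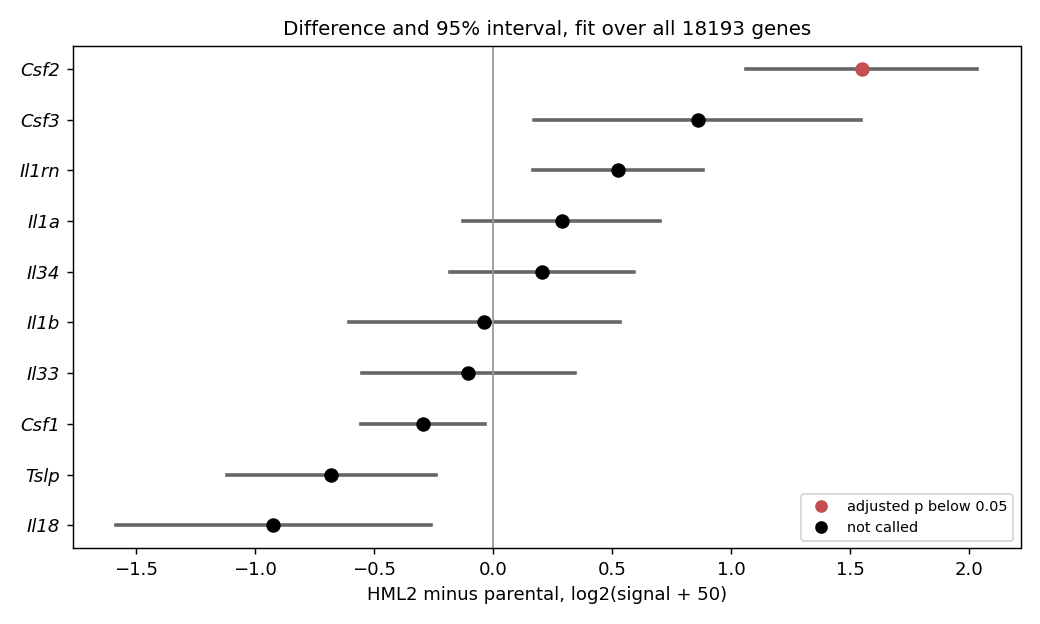
Difference of HML2 minus parental on the log2(signal + 50) scale for the 10 genes, with 95% intervals from the limma fit over all 18193 genes; red marks an adjusted p below 0.05. Csf2 is the single red point at 1.55, and the intervals of Il1a, Il34, Il1b and Il33 include 0.

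Of the 10 genes, Csf2 was thus called in the fit over all genes, in which 11.9% of genes were called in either direction, and Il18 in the filtered fit, in which 27.2% were. Differences were positive for 5 genes and negative for 5, with a median of 0.08 against -0.02 over all genes. The groups did not overlap for 6 of the 10 (Csf2, Il1a and Il1rn higher, Csf1, Il18 and Tslp lower), against 29.9% of all genes (13.3% higher and 16.6% lower). Of the 8 below the filter these were Csf2, Il1a, Il1rn and Tslp, against 14.6% of genes with a mean signal under 100. HML2 replicate 1 had the highest HML2 signal for 9 of the 10 genes, Il1rn being the exception, and for 40.3% of all genes. The part of that array in these values was not tested beyond leaving it out. Signals of the 10 genes were not compared with each other, since probe sets differ in affinity. The list sums below and the choice of a list's brightest genes combine or rank probe sets despite this.

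**Figure D4:**
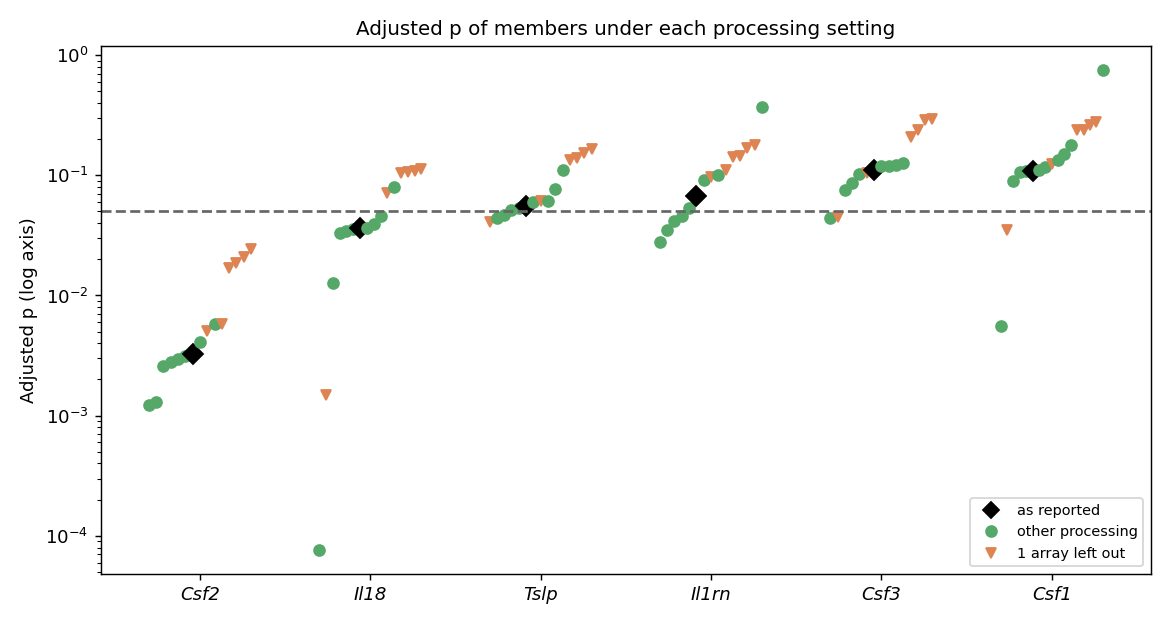
Adjusted p (log axis) of 6 of the genes under each processing setting, with black diamonds for the value as reported, green circles for other processing and orange triangles for 1 array left out; the dashed line marks 0.05. Points of Csf1 and Il18 come from the filtered fit, with 1 point each from the fit over all genes (limma, adjusted p = 0.15 and 0.079). Points of Csf2, Csf3, Il1rn and Tslp come from the fit over all genes. All Csf2 points lie below the line, from 0.0012 to 0.025, whereas the points of the other 5 genes lie on both sides of it.

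Across the 6 arrays, the tested genes whose log2 signals were most like those of Csf1 were Nckipsd (Pearson r = 0.996), Ipo4 (0.993) and Palld (0.988). For Il18 they were Prrx1 (0.998), Nipsnap2 (0.995) and Rgs12 (0.995). These values describe 6 points that share the division into 2 groups.

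Receptors for the 10 cytokines were examined with 14 genes on the array, of which 6 were tested, 1 was higher and 2 were lower. Of all genes tested, 12.3% were higher, 14.9% lower and 27.2% either, the shares against which this and the following list counts are to be read. Il1r1, the signalling receptor of IL-1, read 527, 733 and 667 on parental arrays and 363, 373 and 339 on HML2 arrays. All HML2 values were lower, with a difference of -0.75 (limma, adjusted p = 0.0095; 0.051 without parental replicate 3). Its accessory chain gene Il1rap (0.40) did not pass the test (adjusted p = 0.24). Il18rap, the accessory chain of the IL-18 receptor, was higher, with means of 196 ± 46.7 and 318 ± 20.9 (limma, adjusted p = 0.042). It was not called in the fit over all genes (0.10) or when parental replicate 2 or 3 or any HML2 array was left out, and the binding chain gene Il18r1 stayed within the control range, at 2.26 to 17.9. Sdc1, a proteoglycan that can bind IL-34, was lower, at 9117 ± 646 and 6958 ± 633 (difference -0.39, adjusted p = 0.029). Its other probe sets differed by -0.55, -0.93 and -0.15, and the mean over all of them by -0.51 (adjusted p = 0.0097). With the probe set used here it was not called over all genes (0.056), without parental replicate 1, parental replicate 3 or HML2 replicate 2, under median centring or without an intensity trend.

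The receptor genes for the colony-stimulating factors were dim in both groups. Csf1r read 96.0 to 140 on parental and 46.7 to 125 on HML2 arrays, with a difference of -0.23 (limma, adjusted p = 0.55). Csf2ra read 16.8 to 35.2 over all arrays, within the control range, and Csf3r 1.74 to 49.3, both below the filter. The median difference of the 6 receptor genes tested was -0.12, against -0.02 over all genes tested, and turned to 0.06 without HML2 replicate 3.

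Decoys and inhibitors of IL-1 signalling included 2 genes that rose. Sigirr, a single-domain receptor that restrains IL-1 and IL-33 signalling, read 956, 834 and 832 on parental and 1501, 1586 and 1404 on HML2 arrays. The groups did not overlap, and the difference was 0.74 (limma, adjusted p = 0.0039). Il1r2, the decoy receptor that binds IL-1 without signalling, was below the filter and was named after its values were seen. It read 10.2, 5.55 and 11.7 on parental and 64.6, 123 and 76.9 on HML2 arrays, at least 3.58-fold higher against the floor, and was called in the fit over all genes (1.20, limma, adjusted p = 0.0069). Like Csf2, it rose from the control range on all arrays. Tollip, an adaptor that damps the receptor complex, differed by -0.34 (limma, adjusted p = 0.12), and by -0.47 without HML2 replicate 1 (adjusted p = 0.011). Of the 6 decoy and inhibitor genes on the array, 2 were tested, with 1 higher, 0 lower and a median of 0.20.

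Of 13 tested genes for the inflammasome and cytokine processing, 2 were higher and 3 lower, against 12.3% and 14.9% of all genes tested. Casp1, the protease that matures IL-1 beta and IL-18, had the largest decrease among them. It read 624, 574 and 639 on parental arrays and 41.1, 77.6 and 54.4 on HML2 arrays. The difference was -2.63 (limma, adjusted p = 5.2e-05), and Casp1 was called in 16 of 16 settings of the filtered fit. Casp1 passed the filter only through the parental arrays, where it was high, so those calls do not stand as separate support. It was also called in the fit over all genes (limma, adjusted p = 0.00022). P2rx7, an ATP-gated channel that triggers the inflammasome (-0.98, adjusted p = 0.0068), and Nek7, which binds the sensor NLRP3 (-0.95, adjusted p = 0.00064), were lower as well. Nek7 was chosen to complete that count of 3. The other P2rx7 probe sets differed by -0.44 and -0.03, and the mean over its probe sets by -0.71 (limma, adjusted p = 0.020).

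Gsdme, a pore-forming gasdermin, was higher, at 779 ± 118 and 1711 ± 124 (difference 1.09, limma adjusted p = 0.0013). A second, dimmer Gsdme probe set differed by -0.10. Casp4, the intracellular lipopolysaccharide sensor, was also called higher in the filtered fit, with signals of 174, 11.8 and 76.2 on parental and 506, 216 and 216 on HML2 arrays (difference 1.498, limma, adjusted p = 0.044). Casp4 passed the filter only through the HML2 arrays, where it was high, and was not called in the fit over all genes (0.087). It was also not called without parental replicate 2 or 3, without any HML2 array, with an offset of 16 or without an intensity trend. Pycard, the adaptor that links sensors to caspase-1, read 18.7 to 34.4 on all arrays, within the control range. The median difference of the 13 genes was -0.15.

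**Figure D5:**
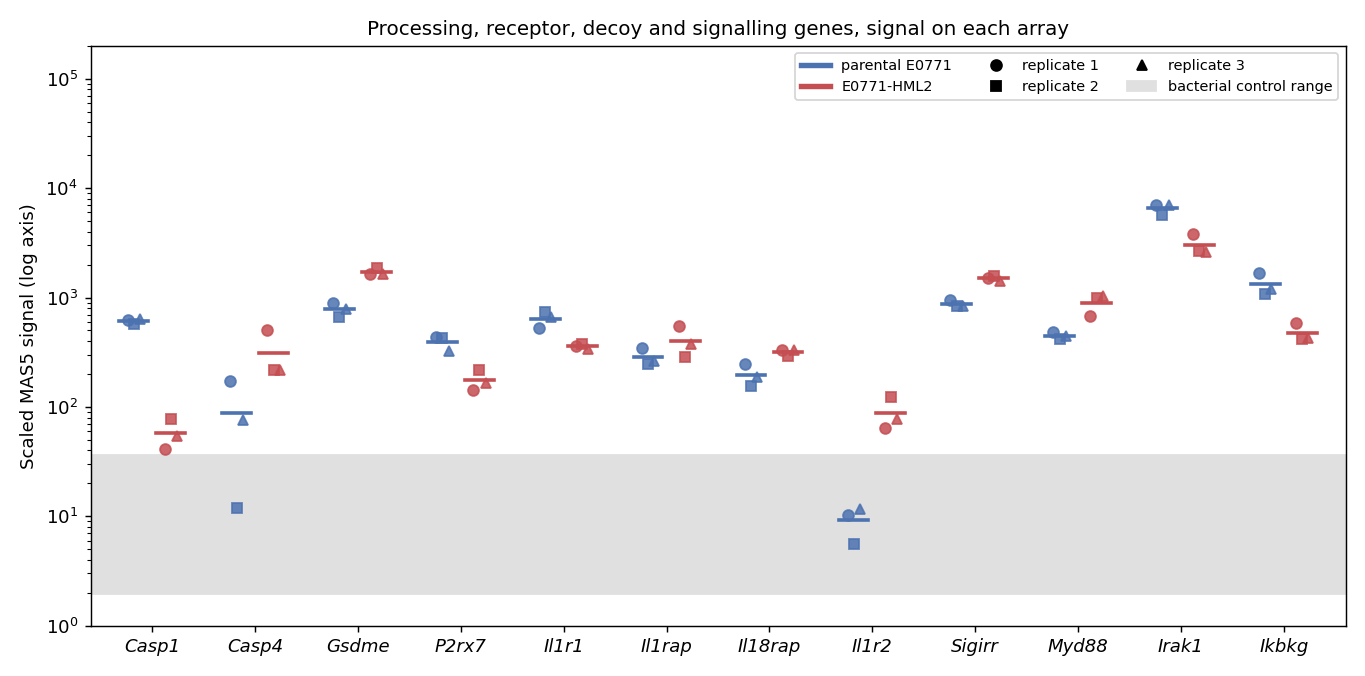
Scaled MAS5 signal (log axis) on each array for 12 processing, receptor, decoy and signalling genes, with group means as bars and the bacterial control range in grey. Casp1 falls from a mean of 612 to 57.7, Il1r2 rises from within the grey band to 64.6 to 123, and Il1r1, Irak1 and Ikbkg are lower and Sigirr and Myd88 higher in HML2 cells.

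The branch from the IL-1 receptor to NF-kB had 1 higher and 2 lower genes among 13 tested, with a median of -0.14; 27.2% of all genes tested were called in either direction. Myd88, the adaptor, read 480.1, 417 and 444 on parental and 672, 995 and 1032 on HML2 arrays (difference 0.91, limma adjusted p = 0.0074). The kinase gene Irak1 was lower, at 6596 ± 767 and 3031 ± 698 (difference -1.13, adjusted p = 0.0023), and its 3 other probe sets differed by -1.12, -1.11 and -0.95. Ikbkg, the regulatory subunit of the kinase that frees NF-kB, was lower as well (-1.37, adjusted p = 0.0021). Its 5 other probe sets ranged from -0.75 to 0.13, and the mean over its probe sets differed by -0.56.

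The JAK-STAT branch used by GM-CSF, G-CSF and TSLP had 1 lower gene of 8 tested, Stat5a (214 ± 46.9 and 90.3 ± 12.1, difference -0.90, limma adjusted p = 0.010). Stat5a passed the filter only through the parental arrays, where it was high, so that fit does not stand as separate support. It was also called lower in the fit over all genes (limma, adjusted p = 0.031). Jak1 differed by 0.09 (adjusted p = 0.60), and the median was -0.28. Leaving out parental replicate 2, leaving out HML2 replicate 1 or adding the replicate block gave 2 lower genes, as did the mean of the probe sets. Array weights gave 4, and a mean signal of at least 200 left 0. Of 10 tested genes whose products bind AU-rich elements or decay cytokine messenger RNA, 1 was higher. This was Zfp36l1 (0.60, adjusted p = 0.015), not called without parental replicate 2 or 3, whereas 2 genes were higher without HML2 replicate 1. With the replicate block, 2 were higher and 1 lower, and with array weights 3 and 1. Hnrnpd differed by 0.15 (adjusted p = 0.28), or by -0.27 as the mean of its probe sets. The median of the list was 0.10, or -0.06 with the mean of the probe sets, when 1 gene was lower.

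Genes known to respond to IL-1 numbered 11 higher and 1 lower of 15 tested, against 12.3% and 14.9% of all genes tested, with a median of 1.83. This list holds genes whose increase in these arrays was known when it was chosen, so its count is no independent evidence. Cxcl1 (5.02), Lcn2 (4.86), Cxcl2 (3.88) and Saa3 (3.56) had the largest differences. The gene called lower was Ptges, with means of 766 ± 73.0 on parental and 272 ± 38.7 on HML2 arrays (difference -1.35, limma, adjusted p = 0.00071). Lcn2, Cxcl2, Saa3 and the called gene Ccl20 passed the filter only through the HML2 arrays, where they were high. They were also called in the fit over all genes. On HML2 replicates 1 to 3 Lcn2 read 5562, 711 and 1049 and Cxcl2 3110, 578 and 696. Without HML2 replicate 1 their differences were 3.98 and 3.15. Nfkbiz, an IL-1-inducible cofactor of NF-kB that was named after its values were seen, read 1346, 947 and 1330 on parental and 5152, 2283 and 2645 on HML2 arrays. Summed over the list, signals ran from 15554 to 26625 on parental and from 61694 to 119851 on HML2 arrays. Of the other IL-1 family ligands, Il1f10 alone was matched on the array and differed by 0.29 with overlapping groups (limma, adjusted p = 0.68 over all genes).

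Markers of cells that could supply these cytokines were measured beside them. The 14 myeloid markers summed to 978 to 1071 on parental and 2003 to 2247 on HML2 arrays. That rise lay in Laptm5 (means of 311 on parental and 1191 on HML2 arrays) and Cd14 (236 and 498), and not in the list as a whole. Cd14 (0.97) and Laptm5 (1.80) were higher and Lyz2 (-0.91) lower, 5 of the 14 stayed under the highest bacterial control on every array, and none was at 0. Lyz2 passed the filter only through the parental arrays, where it was high (means 192 and 78.9). In the fit over all genes Lyz2 (limma, adjusted p = 0.022) and S100a9 (-0.53, 0.027), which lay below the filter, were called lower. Of 9 fibroblast markers, 2 were tested, and the platelet-derived growth factor receptor gene Pdgfra was lower (1954 ± 519 and 873 ± 116). Pdgfrb (-1.18) did not pass the test (limma, adjusted p = 0.053). Col1a2, Col1a1 and Postn lay below the filter. In the fit over all genes Col1a1 (-0.80, limma adjusted p = 0.028) and Postn (-1.06, 0.035) were called lower, and Col1a2 (-0.43, 0.31) was not. The 9 fibroblast markers summed to 2739 to 4689 on parental and 1264 to 2194 on HML2 arrays. Of the lymphoid and endothelial markers 0 were tested, and of the lung epithelial ones 1, Sftpb (0.34), which was not called. Lymphoid, endothelial and lung epithelial lists summed to at most 192, 210.1 and 301, and their brightest genes included Cd8a, Ms4a1, Cd79a, Kdr, Cdh5, Emcn, Sftpb, Sftpc and Sftpd. The part of any of these in the cytokine values was not tested.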

How the data were processed

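Total RNA (15 ug per culture, per the labels' protocols) was biotin-labelled and hybridised to Affymetrix mouse arrays. The authors deposited intensities on a linear scale, 1 for each probe set on each array. MAS5 is the tool listed in the submitters' processing notes, and its version and settings were not stated there. The trimmed mean (lowest and highest 2% left out) was the same on all arrays, which removes differences in total messenger RNA. Of 45101 probe sets, 64 were controls; the annotation of 2016 gave 34945 probe sets 1 symbol, 932 several and did not list 9160. Symbols were updated through RefSeq (GRCm38.p6), in which 34741 were found.

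Signals were converted to log2(signal + 50), which understates changes of dim genes, and each gene was represented by its brightest probe set by mean log2 value. The comparison used limma 3.58.1 under R 4.3.3 (lmFit, eBayes with an intensity trend, Benjamini-Hochberg adjustment, calls at an adjusted p below 0.05) over genes with a mean signal of at least 100; the 8 of the 10 cytokine genes below that were tested in the same fit over all genes. The script was tested on simulated data. Intervals and SE come from limma. Alternatives were the offset, the filter, quantile normalization, median centring, probe set averaging, no intensity trend, array weights, the replicate block and leaving out each array.

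Replicate numbers shared by the groups were checked by correlating, across genes, deviations from group means. The correlation was 0.45 for the arrays numbered 1, 0.34 for those numbered 2 and 0.24 for those numbered 3, above the bound of 0.1 used here, so the numbers may pair the arrays. The labels do not say what the numbers stand for, and HML2 replicate 3 also correlated at 0.24 with parental replicate 2. The unpaired fit was kept as reported, so its p-values take no account of a pairing, and the block was run as an alternative.

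The cytokine genes and lists were chosen with earlier results of these data known. By rule, each pathway list contributed its called genes with the largest absolute differences (at most 4; where fewer than 2, its brightest genes were added), the 3 genes most like each cytokine gene that passed the filter, and the 3 brightest of each marker list. Il1rap, Il18r1, Csf1r, Csf2ra, Csf3r, Il1r2, Nek7, Pycard, Nfkbiz, Ccl20, Ptges, Ptprc, Itgam, S100a9, Col1a1 and Postn were named outside this rule. List genes not matched on the array, such as Il1rl1, Irak4 and Chuk, were not analysed here. No sequence was printed for Csf3, Il34 and Tslp.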

Additional observations from a re-analysis of the deposited data

How the results depend on the processing

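Precision was limited by 3 arrays a group and by signals near background for 8 of the 10 cytokine genes. Among all genes that passed the filter, 1155 were higher and 1395 lower as reported, 2422 and 2631 with array weights, and 590 to 1577 and 795 to 1845 when 1 array was left out. In the fit over all genes, 923 and 1241 became 1492 and 1933 with array weights, 1676 higher with median centring, and 336 to 1222 and 587 to 1598 with 1 array left out. Of the 2 cytokine genes in the filtered fit, 0 were higher and 1 lower; at an unadjusted p under 0.05 (limma) 0 were higher and 2 lower, Csf1 and Il18. Lower calls numbered 2 with array weights and 0 to 2 with 1 array left out. They numbered 0 with a mean signal of at least 200, a filter that left Il18 (mean 157 over all arrays) untested. Without a signal filter, 0 of all 10 cytokine genes were lower and 1 was higher, Csf2. Of the 8 below the filter, 1 was higher and 0 lower as reported; at an unadjusted p under 0.05 (limma) 3 were higher, Csf2, Csf3 and Il1rn, and 1 lower, Tslp. Higher calls numbered 2 with quantile normalization, 3 with median centring, 2 without an intensity trend, 2 with array weights and 1 to 2 with 1 array left out. Lower calls numbered 1 with array weights, 1 with the replicate block and 0 to 1 with 1 array left out. The replicate block changed the call of no other of the 10 genes than Tslp and, in the fit over all genes, Il18. The difference of Il1b (-0.04) became 0.015 with quantile normalization, 0.12 with median centring and 0.0068 with array weights, and with 1 array left out ran from -0.147 to 0.179, above 0 without parental replicate 2 (0.18) or HML2 replicate 2 (0.09). That of Il33 (-0.10) became 0.057 with median centring and with 1 array left out ran from -0.243 to 0.0767, above 0 without HML2 replicate 3. The causes were not tested. The direction of Csf1, Csf2, Csf3, Il34, Il1a, Il1rn, Il18 and Tslp did not change under the alternatives run.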
